A study of Mus musculus with 8 samples.

Results

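The comparison asked what the loss of STAT6 changed in helper T cells that already lacked T-bet. STAT6 relays the signals of IL-4 and IL-13 and T-bet drives type 1 helper T cells. RNA came from CD4+ T cells bearing CD44, the mark of antigen experience, taken from the lymph nodes that drain the skin of BALB/cAJcl mice. They were stimulated for 2 h with PMA and ionomycin, a pair of agents that act downstream of the T cell receptor and release the cytokines a cell is ready to make. The members were the 2 libraries of the genotype T-bet-/- STAT6-/-, called double-null here, and the 2 libraries of the genotype T-bet-/-, called T-bet-null. These 4 of the 8 libraries in the series were chosen by their labels alone, and no library of T-bet-sufficient mice entered its fit. Both groups therefore lacked T-bet and differed in STAT6. STAT6-/- mice with T-bet intact and wild-type (WT) mice, 2 libraries each, were used only for the comparison of the 2 backgrounds. Whether the 2 libraries of a genotype are separate animals is not stated, so the p-values set differences against a spread between libraries that may be technical. Ages, sexes and the design of the deleted alleles were not given in the sources used here.

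Helper T cells divide their work between sets of cytokines. Type 2 cells, which need the factor GATA3 and are promoted by IL-4 through STAT6, make IL-4, IL-5 and IL-13 and drive allergic inflammation. Type 17 cells, which need signals through STAT3, make IL-17A, IL-17F and IL-22 and act on epithelia such as the skin.

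Of 11841 gene symbols in the deposited table, 10281 had at least 1 FPKM in 2 or more of the 8 libraries and were tested. FPKM counts the fragments of a transcript, scaled to its length and to all mapped fragments of the library. Differences are on the scale log2(FPKM + 1), double-null minus T-bet-null, with the standard error (SE) and the Benjamini-Hochberg adjusted p of limma over all genes tested. This scale understates the change of low genes. A gene counts as called where that adjusted p is under 0.05, which held for 2795 genes (27.2%), 1359 higher (13.2%) and 1436 lower (14.0%) in double-null cells. Of these, 134 (1.30%) differed at least 2-fold on that scale, 87 higher (0.846%) and 47 lower (0.457%). The median difference over all genes tested was 0.01. Each count of called list members below stands beside these shares of all genes, 13.2% higher and 14.0% lower. The count of calls rested on both T-bet-null libraries: it fell to 676 without replicate 1 and to 615 without replicate 2, where the remaining library is assumed to vary like the double-null pair. It was 3685 and 2271 without double-null replicate 1 and 2. Replicates correlated at r = 0.998 in T-bet-null and 0.997 in double-null cells across genes, and their depths, relative to the shallowest of the 4, ran from 1.0 to 1.214.

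Stat6 itself (chr10, build mm10) stood at 88.8 and 89.8 FPKM in the T-bet-null libraries and at 29.6 and 26.9 in the double-null libraries. It was lower by a log2 difference of -1.63 (SE 0.062, adjusted p 1.09e-04) and was not absent. Tbx21, which encodes T-bet, stood at 1.44 and 1.54 FPKM in T-bet-null and at 2.49 and 2.09 in double-null cells, a log2 difference of 0.40 (SE 0.0926, adjusted p 0.0259) between values that are low in both. The call on Tbx21 was lost without either T-bet-null library or without double-null replicate 1. The transcripts that mark T cells were present: of 12 identity genes tested, 3 were higher and 3 lower, with a median of 0.13, and without either T-bet-null library 1 was called higher and none lower. Thy1, a surface protein of T cells, differed most, by 0.77.

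The genes of the type 17 programme rose together. Of 15 tested genes of the Th17 and IL-22 list, 14 were called higher and none lower in double-null cells, with a median of 1.00 against 0.01 over all genes. The count called higher was 11 to 13 when a library was left out. The 1 gene not called was Il6ra, a chain of the IL-6 receptor, at -0.06. Nqo1 did not pass the filter on low values, and Ahrr is not listed in the table.

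This list rose as a group, and the run AGGTCA is a site that many nuclear receptors are known to bind. The RefSeq promoters shown are only those of the 5 list members that hold this run. Each is the 250 bases before the transcription start of the reference strain (assembly GRCm38.p6, the assembly of mm10; not the BALB/c sequence), written 5′ to 3′ on the gene's own strand. Capitals mark AGGTCA or its reverse complement TGACCT and, in Ccr6, the run TTCNNNGAA. The windows are chr1:20730655-20730904 (+) for Il17a, chr1:20784271-20784520 (-) for Il17f, chr6:67491856-67492105 (-) for Il23r, chr1:83116516-83116765 (+) for Ccl20 and chr17:8235793-8236042 (+) for Ccr6.
Il17a: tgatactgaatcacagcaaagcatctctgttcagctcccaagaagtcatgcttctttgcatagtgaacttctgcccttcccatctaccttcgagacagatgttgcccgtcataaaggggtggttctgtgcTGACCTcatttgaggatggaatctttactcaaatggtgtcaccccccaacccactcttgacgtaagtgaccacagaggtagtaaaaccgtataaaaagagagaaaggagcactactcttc
Il17f: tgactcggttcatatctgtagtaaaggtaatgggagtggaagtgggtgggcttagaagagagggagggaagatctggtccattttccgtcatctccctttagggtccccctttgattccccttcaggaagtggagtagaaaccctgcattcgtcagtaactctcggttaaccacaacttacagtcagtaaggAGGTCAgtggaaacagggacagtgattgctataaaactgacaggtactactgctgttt
Il23r: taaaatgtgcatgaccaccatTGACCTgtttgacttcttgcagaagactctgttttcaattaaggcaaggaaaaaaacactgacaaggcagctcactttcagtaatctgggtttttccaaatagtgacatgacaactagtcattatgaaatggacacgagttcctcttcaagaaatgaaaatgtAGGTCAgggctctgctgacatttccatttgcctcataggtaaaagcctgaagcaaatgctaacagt
Ccl20: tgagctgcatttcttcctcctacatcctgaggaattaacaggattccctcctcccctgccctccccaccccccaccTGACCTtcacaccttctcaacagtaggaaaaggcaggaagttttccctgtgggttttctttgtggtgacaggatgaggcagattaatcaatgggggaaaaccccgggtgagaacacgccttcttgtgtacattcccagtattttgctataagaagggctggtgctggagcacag
Ccr6: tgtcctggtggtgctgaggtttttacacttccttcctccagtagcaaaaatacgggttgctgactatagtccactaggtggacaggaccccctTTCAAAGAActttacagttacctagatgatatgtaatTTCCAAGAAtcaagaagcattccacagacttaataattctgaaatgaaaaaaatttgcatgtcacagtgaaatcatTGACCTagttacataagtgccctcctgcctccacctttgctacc
The run, on either strand, lay in the windows of these 5 genes out of the 13 list members with a window (38.5%). It lay in 12.6% of the 8198 tested genes with a window and in 14.0% of all 32851 windows counted. Of the genes called at least 2-fold lower it lay in 9 of 35 with a window (25.7%), and of those at least 2-fold higher in 13 of 67 (19.4%). It lay in 3 of 13 genes of the Th2 regulator list with a window (23.1%). The run GCGTG, a core that AHR binds, lay in 5 of the 13 genes of the Th17 and IL-22 list (38.5%). It lay in 51.5% of tested genes and in 28.2% of all windows. A match is only a run of letters and says nothing of binding, and windows without one, such as those of Il22 and Gzmb, say nothing of any factor.

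**Figure D1:**
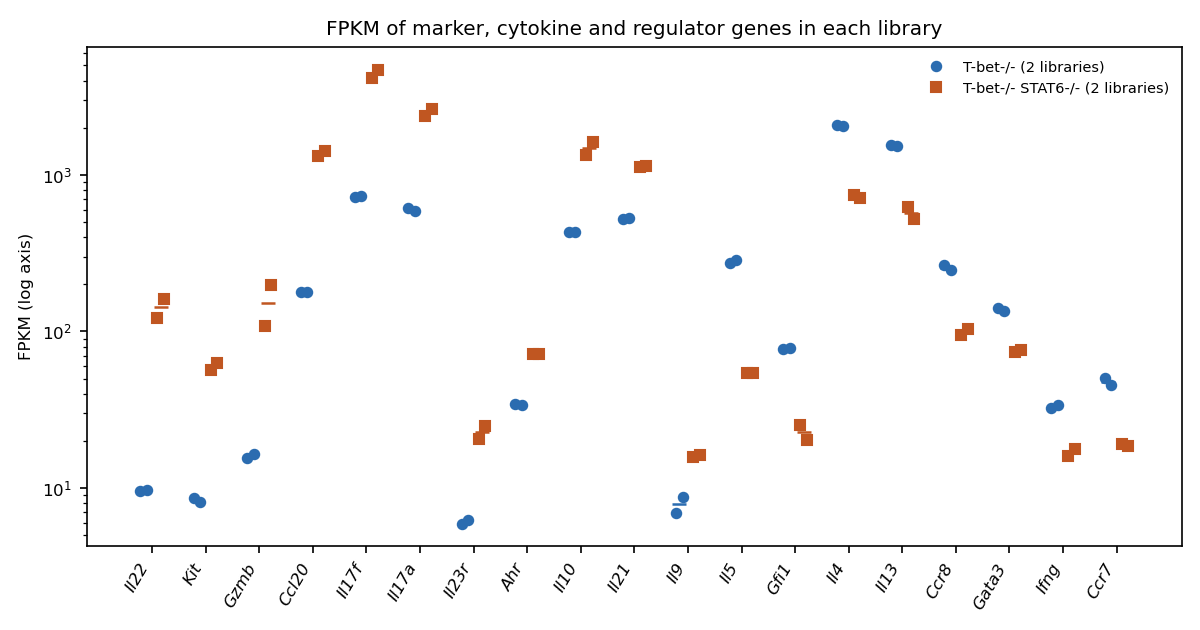
FPKM of selected genes in each of the 4 libraries, on a log axis; each point is 1 library. The double-null points of Il22, Gzmb, Kit, Ccl20, Il17a and Il17f lie above both T-bet-null points, and those of Il5, Gfi1, Il4 and Il13 lie beneath them.

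Il22, the cytokine that acts on epithelial cells (chr10:118204584-118210047), showed the largest rise of all genes tested. It stood at 9.64 and 9.73 FPKM in the T-bet-null and at 123 and 162 in the double-null libraries. The groups were far apart, and the ratio of their means was 14.7 (log2 difference 3.73, SE 0.124, adjusted p 8.65e-05). That ratio was larger for the gene Igj, at 25.3, from a far lower level. Iltifb, annotated in the reference genome as a near-identical copy of Il22 (chr10:118289629-118295038), rose from 4.71 and 5.46 to 23.9 and 37.7 FPKM (2.35, SE 0.198). The reference is not the BALB/c sequence, and whether these mice carry both copies was not examined. Fragments of Il22 could have been split between the 2 annotated copies by the authors' estimation. The level of either one is therefore uncertain, and the rise of Iltifb need not be separate from that of Il22.

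Il17f (chr1:20777146-20785274) stood at 724 and 730 FPKM in T-bet-null cells and at 4163 and 4691 in double-null cells, a 6.09-fold ratio of means (log2 difference 2.60, SE 0.0763, adjusted p 6.96e-05). Its neighbour Il17a (chr1:20730905-20734496) went from 617 and 586 to 2374 and 2620 FPKM, a ratio of 4.15 (2.05, SE 0.0719, adjusted p 8.65e-05). Both genes of this pair encode neutrophil-recruiting cytokines, and for both the higher T-bet-null library lay far under the lower double-null library. Ccl20 (chr1:83116766-83119167), the chemokine that attracts CCR6-bearing cells, stood at 178 and 178 FPKM against 1313 and 1424 (2.94, SE 0.0607, adjusted p 3.00e-05). Its receptor gene Ccr6 rose from 41.6 in both libraries to 83.1 and 85.7 FPKM (1.00, SE 0.0498).

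Among the receptors and regulators, the receptor gene Il23r, through which IL-23 maintains type 17 cells, rose from 5.94 and 6.21 to 20.5 and 25.0 FPKM (1.74, SE 0.0978). Ahr, a ligand-activated factor needed for IL-22, rose from 34.4 and 34.1 to 72.2 and 71.6 FPKM (1.05, SE 0.049). Both genes were 2-fold or more above the T-bet-null level. Smaller rises were called for Il1r1, a receptor for IL-1 (0.75), Tiparp, a target of AHR (0.76), Batf, a partner of IRF4 (0.76), Stat3 (0.44) and Rora, a nuclear receptor (0.25). The call on Rora was lost with quantile normalization, with the spread taken from all 8 libraries and without either T-bet-null library.

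Innate cells can make the same cytokines, and their markers were read beside these results. Of 13 tested genes on the list for type 3 innate lymphoid and lymphoid tissue inducer cells, 7 were higher and 3 lower, and their summed FPKM was 669 to 676 in T-bet-null and 1020 to 1045 in double-null cells. The Th17 and IL-22 list holds 5 of those 13 as well, and Ncr1, a marker of part of these innate cells, is not listed in the table. For gamma delta and innate-like T cells, neither of 2 tested genes was called, the summed FPKM was 1.07 to 1.42 against 1.07 to 1.10, and Trdc and Sox13 are not listed. The part of such cells in these results was not tested. In bulk RNA, more cells of a type and more RNA per cell cannot be told apart, here and in each result that follows.

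The type 2 cytokines fell with 1 exception. Of 5 tested genes, 4 were lower and 1 was higher, with a median of -1.43, and the same counts were found with any 1 library left out. Il5 (chr11:53720794-53725103), the growth factor of eosinophils, stood at 272 and 286 FPKM in T-bet-null and at 54.0 and 54.6 in double-null cells. The T-bet-null mean was 5.13 times the double-null mean (log2 difference -2.34, SE 0.0516, adjusted p 3.00e-05). Il4 (chr11:53612460-53618665), whose product signals through STAT6, went from 2079 and 2048 to 747 and 711 FPKM (-1.50, SE 0.0593, adjusted p 1.18e-04). Il13 went from 1556 and 1522 to 619 and 526 FPKM (-1.43, SE 0.0869), and Il31, an itch cytokine, from 12.6 and 12.2 to 4.55 and 5.07 (-1.20, SE 0.0741). None of these 4 genes was near 0 in double-null cells, and Il4 still stood above 700 FPKM there. The exception was Areg, which encodes the growth factor amphiregulin, with a rise from 247 and 244 to 568 and 681 FPKM (1.34, SE 0.09).

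Il4 was the only gene of that list whose promoter held TTC followed by GAA with 4 bases between them, the spacing that STAT6 is known to prefer. Its window, chr11:53618666-53618915 (-), is printed in the same way, with that run in capitals. Il4 and Ccr6 each have a second RefSeq start, whose window holds none of these runs and is not printed.
Il4: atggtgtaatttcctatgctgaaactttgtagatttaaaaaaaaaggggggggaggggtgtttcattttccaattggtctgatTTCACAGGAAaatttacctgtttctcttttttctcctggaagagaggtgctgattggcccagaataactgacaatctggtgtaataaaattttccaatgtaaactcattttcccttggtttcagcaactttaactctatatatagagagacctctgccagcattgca
Counted by gene as before, the run lay in 1 of 5 type 2 cytokines and in none of 13 genes of the Th17 and IL-22 list. It lay in 5.64% of tested genes with a window (5.85% of all windows). It lay in 5 of 35 genes called at least 2-fold lower (14.3%) and in 2 of 67 of those called at least 2-fold higher (2.99%). The shorter spacing TTCNNNGAA, with 3 bases between, which other STAT factors bind, lay in 2 of those 35 (5.71%) and in 10 of those 67 (14.9%), against 7.33% of tested genes and 7.02% of all windows. Enhancers were not examined.

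The regulators and receptors of type 2 cells were split. Of 17 tested genes, 5 were higher and 7 lower, with a median of 0.00. Gfi1 (chr5:107716655-107725805), a repressor that aids the growth of type 2 cells, stood at 77.2 and 78.1 FPKM in T-bet-null and at 25.4 and 20.2 in double-null cells (-1.73, SE 0.103, adjusted p 4.18e-04). Gata3, the master factor of the lineage, went from 142 and 136 to 74.2 and 76.4 FPKM (-0.87, SE 0.052, adjusted p 4.18e-04). The chemokine receptors Ccr8 (-1.35) and Ccr4 (-0.93), which direct cells to skin, and Il17rb (-0.69), a receptor for IL-25, were lower too. Pparg, a nuclear receptor, was lower by 1.01 on the log2 scale from a low level of 1.41 and 1.93 FPKM. The members that rose were Maf, which activates the Il4 and Il10 promoters (0.90), Junb (0.58), Crlf2 (0.48), Bhlhe40 (0.38) and Notch1 (0.37). Without either T-bet-null library the counts were 3 higher and 6 lower, or 2 and 5.

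On the list of genes known to respond to IL-4 and STAT6, 3 of 16 were higher and 8 lower (median -0.10), or 2 and 4 without T-bet-null replicate 1 and 2 and 5 without replicate 2. Beside Gfi1, Ccr8 and Gata3, the members lower in double-null cells included Ecm1, a secreted matrix protein (-0.78), Cish, a feedback inhibitor (-0.45), and Il4ra, the receptor for IL-4 (-0.28). The 3 that rose were Zeb2 (1.09), Batf (0.76) and Xbp1 (0.25). Type 2 innate lymphoid cells can carry several of these genes: of 12 tested marker genes, 4 were higher and 6 lower. The summed FPKM of their list was 2387 to 2416 in T-bet-null and 1585 to 1611 in double-null cells. That list shares Il5, Il13 and Areg with the type 2 cytokines. The means of these genes were 279, 1539 and 245 FPKM in T-bet-null and 54.3, 572 and 625 in double-null cells. The part of type 2 innate lymphoid cells in these results was not tested.

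**Figure D2:**
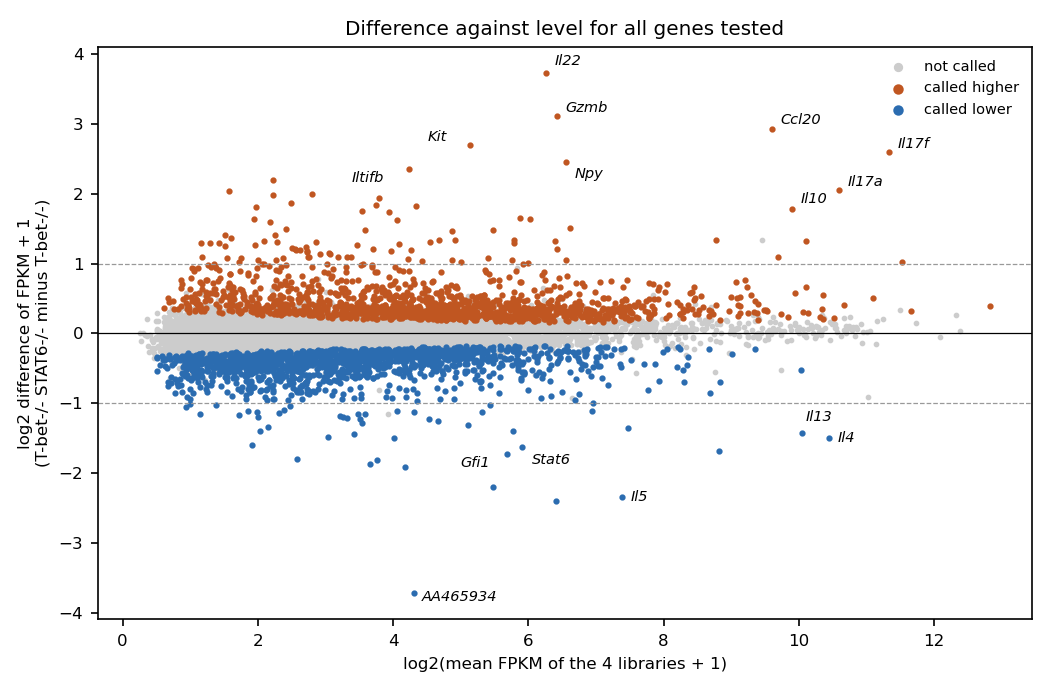
Difference on the log2(FPKM + 1) scale against the mean level of the 4 libraries for all 10281 genes tested; each point is a gene and dashed lines mark 2-fold. Il22 lies highest at 3.73 and AA465934 lowest at -3.72, and Ccl20, Il17a and Il17f combine a high level with a rise of over 2 on the log2 scale.

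Gzmb and Kit rose beside these sets of cytokines. Gzmb (chr14:56258836-56262334) encodes granzyme B, a protease of killer cells. It stood at 15.6 and 16.5 FPKM in T-bet-null and at 109 and 197 in double-null cells, so that the double-null libraries differed between themselves and still lay far above the others (3.11, SE 0.251, adjusted p 0.00113). No other tested gene of cytotoxic granules rose as far. Of 14 tested, 5 were higher and 2 lower, with a median of 0.07, or 2 and 2 without either T-bet-null library. Over all genes 13.2% were called higher and 14.0% lower. Beside Gzmb, Rab27a (0.66), Srgn (0.39), Prf1, which encodes perforin (0.36), and Lamp1 (0.24) rose. Gzma was not called (0.13), and Nkg7 (-1.34) and Ctsw (-0.83) fell. Of the NK cell list 2 genes were tested, Klrc1 (0.98, higher) and Fcer1g (-0.64, lower), with summed FPKM of 1.78 to 2.18 against 3.07 to 3.43, and Ncr1 and Eomes are not listed. Of the CD8 T cell list Cd8b1 was tested and not called, with 3.50 to 4.17 FPKM against 3.40 to 4.46, and Cd8a is not listed.

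Kit (chr5:75574987-75656722), the receptor for stem cell factor, stood at 8.67 and 8.11 FPKM in T-bet-null and at 56.7 and 62.9 in double-null cells, 7.13-fold higher by the means (2.69, SE 0.0716, adjusted p 4.81e-05). Mast cells and innate lymphoid cells carry this receptor. Of the 12 entries of the mast cell and basophil list, Kit and Hdc, the enzyme that makes histamine, were tested and Hdc was not called (-0.09). The 10 others, among them Fcer1a, Cpa3 and Mcpt8, are not listed in the table, which holds only genes above 0.1 FPKM in all 8 libraries.

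Other cytokines moved in both directions. Il10, which restrains inflammation, stood at 430 and 429 FPKM in T-bet-null and at 1338 and 1631 in double-null cells (1.78, SE 0.0973, adjusted p 3.27e-04). Il21, which acts on B cells and supports type 17 cells, went from 521 and 534 to 1130 and 1134 FPKM (1.10, SE 0.0536). Both rose above the T-bet-null range by 2-fold or more. Il9, a mast cell growth factor (chr13:56479277-56482257), stood at 6.97 and 8.76 FPKM against 15.9 and 16.2 (0.95, SE 0.103, adjusted p 0.00251). Ifng, the type 1 cytokine, was low in both groups and lower in double-null cells, at 32.4 and 33.9 against 15.96 and 17.8 FPKM (-0.93, SE 0.0698).

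Il2, Il3, Csf2 and Tnf did not pass the test. Il2, the T cell growth factor, stood at 4682 and 4598 against 6133 and 5044 FPKM (0.26, adjusted p 0.113). Il3 stood at 81.3 and 79.6 against 71.8 and 38.7 (-0.60, adjusted p 0.128). Csf2 had a difference of -0.18 (adjusted p 0.190) and Tnf of 0.17 (adjusted p 0.158). The double-null libraries lay further apart for Il3 than the T-bet-null libraries, and Il3 was called lower without double-null replicate 1 (-1.04). Of the growth factor and IL-2 family list, 5 of 11 were higher and 2 lower, the latter Csf1 (-0.58) and Vegfa (-0.40). These counts were 3 and 1 without either T-bet-null library and 5 and 4 without double-null replicate 1.

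Regulators of other helper sets were read in the same way. Prdm1, which encodes Blimp-1 and promotes Il10, rose by 0.63. Foxp3, the factor of regulatory T cells, stood at 95.6 and 91.8 against 97.4 and 113 FPKM and was not called (0.16, adjusted p 0.174). Bcl6, the factor of follicular helper cells (-0.04, adjusted p 0.728), and Irf4, a factor of activated T cells (-0.06, adjusted p 0.524), were not called either. On the Th9 list 5 of 16 genes were higher and 2 lower, with a median of 0.05. Beside Il9 and Batf, Irf1 (0.75), Smad3 (0.48) and Irf8 (0.43) rose, and Id3 (-0.59) and Tgfbr1 (-0.52), a receptor for TGF-β, fell.

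**Figure D3:**
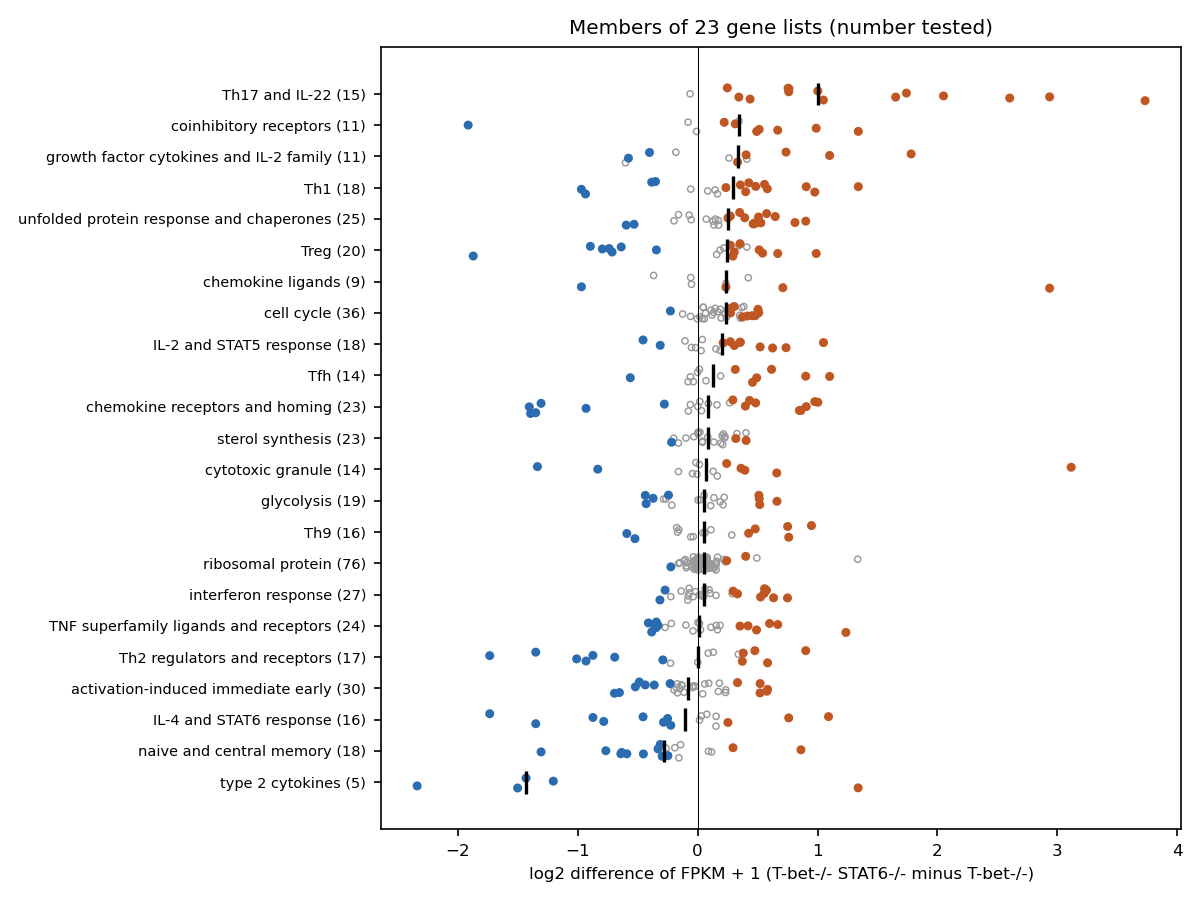
Differences of the tested members of 23 gene lists on the log2(FPKM + 1) scale; each point is a gene, filled where called (orange higher, blue lower) and open where not, and the black bar is the list's median. The Th17 and IL-22 list lies furthest to the right, with a median of 1.00, and the type 2 cytokines furthest to the left, at -1.43.

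Genes of the type 1 programme moved in both directions. Of 18 tested, 10 were higher and 4 lower, with a median of 0.30. Among the rises were those of Havcr2, which encodes the receptor TIM-3 (1.34), and of the chemokine receptor Cxcr3 (0.98). Ccl3 (-0.97), Ifng (-0.93), Fasl (-0.38) and Lta (-0.35) fell. The counts were 5 and 2 without either T-bet-null library. Of 27 interferon-inducible genes 8 were higher and 2 lower, against 13.2% and 14.0% of all genes, with a median of 0.05. The rises were led by the GTPases Gbp5 (0.75) and Irgm1 (0.63), and 5 or 4 genes were called higher and none lower without a T-bet-null library.

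Coinhibitory receptors rose more often than they fell, with 7 of 11 higher and 1 lower (median 0.34), or 4 and 1 without either T-bet-null library. Over all genes 13.2% were called higher and 14.0% lower. Havcr2, Entpd1, an enzyme that degrades extracellular ATP (0.99), Tigit (0.67), Ctla4 (0.51) and Pdcd1 (0.49) were higher. The 1 lower gene was Cd160, which went from 28.0 and 27.2 to 6.76 and 6.43 FPKM (-1.91, SE 0.0607, adjusted p 8.25e-05). Genes of regulatory T cells were divided, with 8 of 20 higher and 7 lower (median 0.25). These counts were 3 and 6 without either T-bet-null library and 12 and 7 without double-null replicate 1. Lrrc32, which encodes the TGF-β docking protein GARP, fell from 19.7 and 17.9 to 4.96 and 3.89 FPKM (-1.87, SE 0.109), and Ikzf2 (-0.89), Nrp1 (-0.79) and Folr4 (-0.74) fell as well. Of the follicular helper list, 6 of 14 were higher, led by Il21 and Maf, and 1, Slamf6, was lower (-0.56).

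Genes of naive and central memory cells were mostly lower, while 14.0% of all genes were called lower and 13.2% higher. Of 18 tested, 10 fell and 2 rose, with a median of -0.28, and 4 or 5 were called lower without 1 of the T-bet-null libraries. Ccr7, which brings T cells into lymph nodes, was lower by 1.30 on the log2 scale. Klf4 (-0.76), Actn1 (-0.64) and Klf3 (-0.63) fell too, and S1pr1, which lets cells leave the node, rose by 0.86. Of 23 chemokine receptors and homing genes, 9 were higher and 6 lower (median 0.09), or 5 and 5 without T-bet-null replicate 1. Cxcr4, the receptor for CXCL12, went from 80.8 and 75.2 to 30.5 and 27.3 FPKM (-1.40, SE 0.0719), and Itga4, a chain of integrin VLA-4, fell by 1.39 on that scale. Of 9 chemokine ligands, 3 were higher (Ccl20, Ccl22 and Ccl4), and Ccl3 was lower; without either T-bet-null library 1 was called each way.

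In the unfolded protein response and chaperone list 13 of 25 were higher and 2 lower (median 0.25), against 13.2% and 14.0% of all genes. Among the higher genes were Sdf2l1 (0.90), Manf (0.81) and Herpud1 (0.65), which act in the endoplasmic reticulum. The 2 lower genes were the cytosolic chaperones Hsph1 (-0.59) and Hspa8 (-0.53). The count called higher was 5 or 6 without 1 of the T-bet-null libraries. Of 18 genes of the IL-2 and STAT5 response 9 were higher and 2 lower, led by the feedback inhibitor Socs3 (1.05); without either T-bet-null library 4 were called higher and at most 1 lower. Of 24 genes of the TNF superfamily 6 were higher and 7 lower, with Tnfrsf8, which encodes CD30, at 1.24. The lower calls of that list numbered 0 without either T-bet-null library, and the higher calls 4 or 3. Among 30 immediate early genes, 5 were higher and 7 lower (median -0.08), the latter led by Nr4a2 (-0.69) and Dusp5 (-0.65). The lower calls numbered 12 without double-null replicate 1 and 3 without either T-bet-null library.

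Of 36 cell cycle genes 9 were higher and 1 lower (median 0.24). The share called either way lay near the 27.2% of all genes. The calls were uneven by direction, while 13.2% of all genes were called higher and 14.0% lower. Of the 36, 32 had a positive difference and 4 a negative one. The count called higher ran from 0 without T-bet-null replicate 2 to 22 without double-null replicate 1. Aurka (0.51) and Mcm3 (0.50) rose most. In glycolysis 4 of 19 were higher, led by Pkm2 (0.66), and 4 were lower, led by Pfkfb3 (-0.44). Without double-null replicate 1 the counts were 8 and 2, and without either T-bet-null library no lower call was made. In sterol synthesis 2 of 23 were higher and 1 lower, and of 76 ribosomal protein genes 2 were higher and 1 lower, with a median of 0.05. In both lists these shares lay under the 13.2% and 14.0% of all genes. The ribosomal counts turned with the setting: 1 was higher and 16 lower with quantile normalization (median -0.10), 14 were higher and 5 lower without double-null replicate 1, and none was called without either T-bet-null library. The sterol counts were 5 and 1 without double-null replicate 1.

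Several of the 12 largest rises and falls lay outside these lists. Npy, a neuropeptide, stood at 26.4 and 26.1 FPKM in T-bet-null and at 103 and 216 in double-null cells (2.46, SE 0.309, adjusted p 0.00398). Coro2a, an actin-binding protein, went from 0.69 and 0.67 to 6.79 and 6.58 FPKM (2.19, SE 0.0748), and Stom, a membrane protein, from 1.76 and 1.79 to 8.98 and 11.4 (2.00, SE 0.114). Igj, which encodes the joining chain of secreted antibodies, went from 0.160 and 0.142 to 4.83 and 2.83 FPKM (2.04, SE 0.19). Plasma cell markers give a context for Igj: Derl3 was not called (0.28), Mzb1 and Tnfrsf17 are not listed, and none of 3 tested B cell genes was called, with summed FPKM of the list at 2.83 to 3.23 against 2.47 to 3.40. The part of such cells was not tested. Rmrp, an RNA of 275 bases, rose from 0.63 and 1.12 to 5.14 and 7.76 FPKM (1.98), and FPKM of RNAs shorter than the sequenced fragments is uncertain.

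The largest fall on the log2(FPKM + 1) scale was that of AA465934, an uncharacterised gene. It stood at 36.6 and 34.9 FPKM in T-bet-null and at 1.598 and 2.001 in double-null cells (-3.72, SE 0.0872, adjusted p 3.00e-05). Sfi1, a centrosome protein, went from 20.4 and 19.9 to 5.15 and 4.89 FPKM (-1.81, SE 0.063). Sostdc1, a secreted antagonist of BMP and Wnt signals, went from 8.76 and 7.71 to 1.70 and 1.62 FPKM (-1.80, SE 0.0851), and Kcnf1, a potassium channel subunit, from 4.71 and 4.602 to 0.935 and 0.819 (-1.59). For each of these genes both double-null values lay far under both T-bet-null values, which follows in part from their choice as the largest falls. Mir27a (-2.40), Snora28 (-2.19) and Mir3064 (-1.69) were also among the 12, with annotated spans of 87, 122 and 67 bases, so that their FPKM carries the same doubt as that of Rmrp.

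Markers of cells outside the sort were low, with some exceptions. Of 12 tested myeloid and dendritic genes 4 were higher and 1 lower, with summed FPKM of 122 to 128 in T-bet-null and 136 to 155 in double-null cells; at most 1 was called without either T-bet-null library. Lyz2, the lysozyme of macrophages, stood at 2.49 and 3.59 against 6.52 and 10.02 FPKM, and Csf1r, Itgam and Itgax are not listed. Ccr3, the 1 tested gene of the eosinophil and neutrophil list, was not called, 1 of 2 stromal and endothelial genes was higher, and of 3 keratinocyte genes 1 was higher and 1 lower. Both erythroid genes tested were lower, with summed FPKM of 7.36 to 7.48 against 2.63 to 4.15, and neither was called without either T-bet-null library. The 4 Y-linked genes tested were not called, but their summed FPKM was 34.1 and 33.7 in T-bet-null cells and 29.5 and 67.9 in double-null replicates 1 and 2. Double-null replicate 2 thus stood apart from the other 3 libraries in these genes, and it was the higher double-null library for Il22, Gzmb and Npy. Without it Il22 differed by 3.53, Gzmb by 2.69 and Npy by 1.93, and its part in these results was not tested.

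Some calls were lost when a library was left out. A group of 1 library has no spread of its own, so a lost call need not mean a changed difference. With 1 library left out the log2 difference ran from 0.24 to 0.26 for Rora and from 0.40 to 1.02 for Ccl22. Without either T-bet-null library the calls on Rora, Bhlhe40, Notch1, Il4ra, Xbp1, Prf1, Fcer1g, Vegfa, Fasl, Lta, Ctla4, Ccl4, Ccl22, Mcm3, Pfkfb3, Snora28 and Mir3064 were lost. Those on Cish, Id3 and Lyz2 were lost without T-bet-null replicate 1, and those on Stat3, Il17rb, Junb, Irf8, Tgfbr1, Aurka and Tnfrsf8 without replicate 2. Ccl4, Ccl22, Prf1, Vegfa and Xbp1 were not called without double-null replicate 2 either. Among genes not called, Il2 and Tnf were called higher without double-null replicate 2, Csf2 was called lower and Foxp3 higher without replicate 1, and Irf4 was called lower with quantile normalization. The calls on Il22, Gzmb, Kit, Il5, Gfi1, Il17a, Il17f, Ccl20, Il4, Il13, Gata3 and Il10 held with any 1 of the 4 libraries left out.

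To ask whether STAT6 loss had the same effect with T-bet present, the difference between double-null and T-bet-null cells was set against that between STAT6-null and WT cells in 1 limma fit of all 8 libraries. The interaction, the first effect minus the second, was called for 5889 genes (57.3%), 3046 positive (29.6%) and 2843 negative (27.7%). Of the 2795 genes called in T-bet-null cells, 1054 had a called interaction with both effects of the same sign, 704 had a called interaction with effects of opposite sign, and 1037 had none called. The WT libraries stood apart in genes outside the T cell programme: the summed FPKM of the erythroid genes was 224 to 442 in WT and 2.63 to 7.48 in the 6 mutant libraries, and that of the Y-linked genes 104 to 110 against 29.5 to 67.9. The labels give no batch, so an offset of the WT libraries and the effect of STAT6 loss with T-bet intact cannot be told apart.

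Il4, Il13 and Ifng had differences of opposite sign on the 2 backgrounds. So did Il3 (-0.60 and 2.50) and Csf2 (-0.18 and 0.91), which were not called in T-bet-null cells. The STAT6 effect on Il4 was -1.50 in T-bet-null and 3.09 in T-bet-sufficient cells, an interaction of -4.59 (SE 0.231, adjusted p 4.86e-06). For Il13 the effects were -1.43 and 1.66, and for Ifng -0.93 and 1.67. For Il5 they were -2.34 and 0.07, an interaction of -2.41 (adjusted p 1.01e-04). Il4 levels were 183 and 117 FPKM in WT and 1238 and 1275 in STAT6-null cells, so that the T-bet-null libraries, at 2079 and 2048, were the highest of the 8.

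Il22, Il17a and Il17f had positive differences on both backgrounds, larger in cells without T-bet. Il22 had an effect of 3.73 in T-bet-null and 0.53 in T-bet-sufficient cells (interaction 3.20, SE 0.161, adjusted p 4.86e-06). The effects on Il17a were 2.05 and 1.07, and on Il17f 2.60 and 1.82, with called interactions of 0.98 and 0.78. Kit followed the same order, with 2.69 against 0.82. Il10 (1.78 against 2.99), Il21 (1.10 against 2.05) and Il9 (0.95 against 2.10) had positive differences on both that were smaller without T-bet, and Gfi1 had negative ones (-1.73 against -0.98).

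Gzmb and Stat6 had effects whose difference was not called. Gzmb had a difference of 3.11 in T-bet-null and of 3.29 in T-bet-sufficient cells, with an interaction of -0.18 (SE 0.298, adjusted p 0.625). The Gzmb interaction turned on the double-null library kept: it was 0.25 without replicate 1 (adjusted p 0.03026) and -0.61 without replicate 2 (adjusted p 0.0006833), both past the threshold and of opposite sign. Stat6 had differences of -1.63 and -1.55 (interaction -0.08, SE 0.0897, adjusted p 0.449). Gzmb levels were 13.1 and 12.9 FPKM in WT and 138 and 135 in STAT6-null cells, and the double-null libraries lay on either side of the latter.

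**Figure D4:**
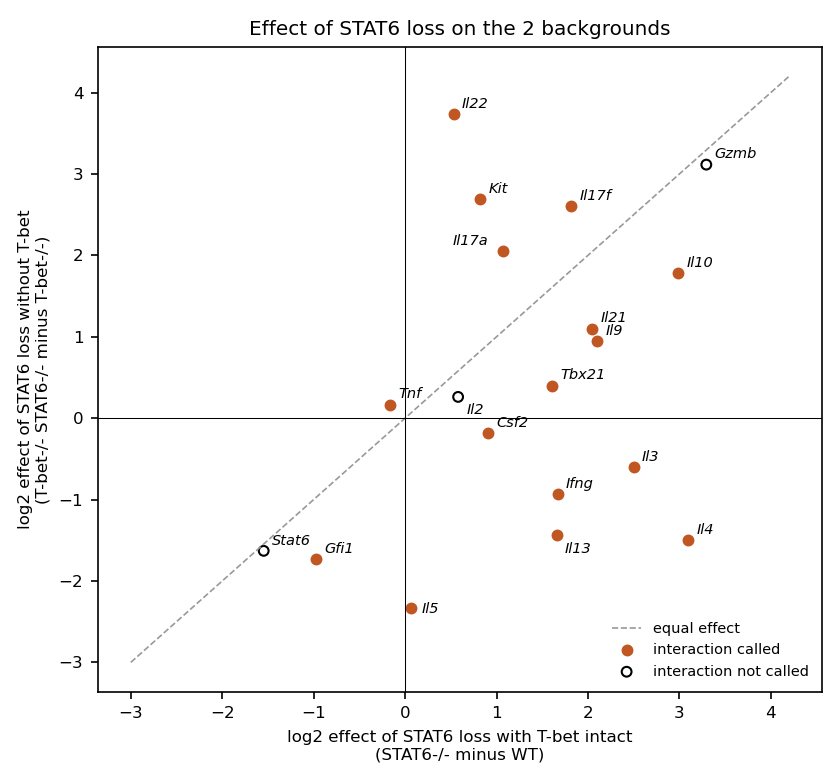
Effect of STAT6 loss on the log2(FPKM + 1) scale in T-bet-null cells (vertical axis) against that in T-bet-sufficient cells (horizontal axis) for the cytokine genes, the 5 marker genes and both targeted genes. Il4, Il13, Ifng, Il3 and Csf2 lie in the quadrant of negative effects without T-bet and positive effects with it, and Il5 lies at its edge. Tnf, near the origin, has the reverse signs. Il22 and Kit lie far above the diagonal of equal effects, and Gzmb lies close to that diagonal.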

How the data were processed

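RNA of 8 libraries was measured, 2 for each of 4 genotypes. The authors deposited 1 table of FPKM per gene. Cufflinks and build mm10 were used, per the submitters' processing notes, and RefSeq genes, per the table's name. No source used here names the aligner, the versions or the strandedness. The table holds 11906 lines, all above 0.1 FPKM in every library, so a gene silent in any library is missing. Of 43 repeated symbols the line with the highest mean was kept (65 lines set aside), and 15 tested names turned into dates were counted and not named. Depth is not printed; relative depth was read from the steps of 503 genes under 0.5 FPKM and ranged from 1.0 to 1.215 over the 8 libraries.

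limma 3.58.1 (R 4.3.3; two-sided, empirical Bayes with an intensity trend) was run on log2(FPKM + 1) of the 4 libraries, with 2 residual degrees of freedom and Benjamini-Hochberg adjustment over 10281 genes. The interaction used all 8 libraries (4 residual degrees of freedom). The procedure was tested on simulated data. The 4 libraries were placed by their labels, but the choice of this comparison, its marker genes and the 38 gene lists was made with earlier results of these data known, so list counts are descriptions and support nothing by themselves. Named genes are the targeted genes, 5 marker genes, the 12 largest called rises and falls, a list of cytokines and regulators, and up to 4 called members of each list; further list members and the genes of the closing section were named after their values were seen. Alternatives were another pseudocount, other filters and scalings, no trend, other sources of spread, a replicate block and leaving out each library. Coordinates and promoters are from RefSeq (GRCm38.p6, counted from 1). Incomplete promoter windows and those on chromosome 18 were left out of all window counts. Of the symbols, 10575 matched directly and 1164 by an older name. Figures were drawn with Matplotlib 3.10.9. Some genes that belong to the lists are counted but not reported by name here.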

Additional observations from a re-analysis of the deposited data

Results flagged for a closer look

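The effect of STAT6 loss differed between T-bet-null and T-bet-sufficient cells in the limma interaction test for 16 of the 19 cytokine, marker and targeted genes examined, while 57.3% of all genes tested had a called interaction. Values are log2 differences, the effect without T-bet minus that with T-bet, and rest on WT libraries whose offset cannot be told apart from the effect with T-bet present.

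Positive interactions were found for Il22 (3.20, adjusted p 4.86e-06), Kit (1.87, adjusted p 4.86e-06), Il17a (0.98, adjusted p 2.86e-04), Il17f (0.78, adjusted p 9.66e-04) and Tnf (0.34, adjusted p 0.0261). The first 4 had a positive effect on both backgrounds. Tnf was at 0.17 and -0.17, and its interaction was lost with quantile normalization (0.06) and without WT replicate 2, STAT6-null replicate 2, double-null replicate 1 or either T-bet-null replicate (0.24 to 0.36).

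Negative interactions with effects of opposite sign were found for Il4 (-4.59, adjusted p 4.86e-06), Il13 (-3.09, adjusted p 3.89e-06), Ifng (-2.60, adjusted p 4.86e-06), Il3 (-3.10, adjusted p 9.27e-05), and Csf2 (-1.09, adjusted p 6.16e-04). Il5 had an interaction of -2.41 (adjusted p 1.01e-04), from an effect of -2.34 without T-bet and of 0.07, near none, with it. Without T-bet, Il3 and Csf2 were not called, at -0.60 and -0.18; with T-bet they stood at 2.50 and 0.91.

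Il10 (-1.21, adjusted p 9.93e-05), Il21 (-0.95, adjusted p 1.19e-04), Il9 (-1.15, adjusted p 0.00105) and Tbx21 (-1.20, adjusted p 5.28e-05) had positive effects on both backgrounds that were smaller without T-bet. Tbx21 is the deleted gene of the T-bet-null mice, so its value there concerns residual transcript. Gfi1 (-0.75, adjusted p 0.00146) had negative effects on both, larger without T-bet.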

How the results depend on the processing

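The count of 2795 calls stayed within 1.5 times under the other pseudocount, filters, scalings and sources of spread. With the replicate number as a block it was 2361, of which 2229 were among the 2795. The numbers do not pair the libraries: there are only 2 pairs, and replicate 1 minus 2 correlated at r = -0.0899 between the groups across genes. With 1 library left out it ran from 615 to 3685; genes called higher ran from 308 to 2121 and genes called lower from 307 to 1564. A pseudocount of 0.1 gave 276 genes of at least 2-fold against 134. The interaction count moved under none of its alternatives by over 1.5 times. Over 145 single-gene differences and interactions, 1920 alternative values kept direction and side of the threshold, 98 lost the call (29 without T-bet-null replicate 1 and 32 without replicate 2), 11 gained it and 10 changed sign. The sign changes were Bcl6 (-0.097 to 0.026 with 1 library left out; above 0 without double-null replicate 1), Irf4 (0.0038 without double-null replicate 2), Cd8b1 (range -0.13 to 0.18; -0.078 and -0.13 without T-bet-null or double-null replicate 2), Blk (range -0.12 to 0.32; below 0 without T-bet-null replicate 1), Ccr3 (-0.0018 with a pseudocount of 0.1, -0.0051 with median-of-ratios scaling, -0.053 without T-bet-null replicate 1, -0.17 to 0.17 with 1 library left out) and the Gzmb interaction (-0.61 to 0.25; above 0 without double-null replicate 1). None of these values was called in the comparison itself. The causes were not tested. Genes near 1 FPKM rest on few fragments, and 2 libraries a group limit what can be called.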

Other observations

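These genes were chosen after their values were seen and were described nowhere above, and they stand for no group. Timp1, an inhibitor of matrix proteases, stood at 5.39 and 4.01 FPKM against 17.4 and 24.5 (log2 difference 1.94, SE 0.178, adjusted p 0.00165). Mmp13, a collagenase, stood at 22.2 and 22.7 against 65.5 and 63.2 (1.48). Esm1, a secreted proteoglycan first known from endothelium, stood at 50.6 and 49.6 against 144.9 in both libraries (1.51). Cpe, which trims peptide hormones, went from 5.06 and 4.70 to 18.3 and 21.8 FPKM (1.84), and Scg2, a granin, from 9.15 and 8.69 to 21.2 and 25.3 (1.28). Their double-null values did not overlap the T-bet-null values, which follows from choosing the genes by their values and adds no support.

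Il1r2, the decoy receptor of IL-1, rose from 639 and 613 to 1409 and 1753 FPKM (1.33). Gpr15, a homing receptor of gut and skin, rose from 2.79 and 3.36 to 7.16 and 9.12 FPKM (1.16). P2rx7, a channel opened by extracellular ATP, fell from 4.53 and 4.30 to 1.52 and 1.47 FPKM (-1.12), and Cysltr2, a leukotriene receptor, from 5.71 and 5.97 to 2.03 and 2.18 (-1.14).

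Il22 and Iltifb lie on the chromosome that holds Stat6, 9.44 and 9.36 Mb away. Within 5 Mb of Stat6, 0 of 67 tested genes other than Stat6 itself were called at least 2-fold different. From 5 to 10 Mb it was 3 of 24 (12.5%), namely Il22, Iltifb and Tbc1d30 (1.202), against 127 of 9697 (1.31%) on other chromosomes. The count of 3 takes Il22 and its near-identical annotated copy Iltifb as separate genes, although their rises need not be separate. The share of 12.5% is therefore not one of independent rises and cannot be weighed against 1.31%. The distance bands were chosen after the values were seen, and the genome around the deleted allele was not examined.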
